A study of Mus musculus with 12 samples.

Results

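Transcription factors of the forkhead, Sox, Klf, T-box and Ets families, together with Gata3 and Gata6, were followed in the yolk sac of mouse embryos that lack Prdm6 (del/del), at 10.5 days of development. The probes were chosen by gene symbol alone. They comprised every Fox, Tbx, Etv, Elf, Sox and Klf gene of the array, Ets1, Ets2, Erg, Fli1 and the Gata and Hand genes named here, with Klf1 left out. Of 20794 probes on the array, 86 met this rule and 84, of 59 genes, had a value on at least 8 arrays. They covered 26 forkhead probes (19 genes), 11 Sox probes (7 genes), 16 Klf probes (10 genes), 13 T-box probes (8 genes), 16 Ets probes (13 genes) and 1 probe each of Gata3 and Gata6. A Foxj1 probe with 7 values and a Sox11 probe with 6 values were not tested. Sox7, Sox18, Foxa2, Foxc2, Foxf1, Tbx20, Gata4, Hand1 and Hand2 were not analysed here.

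RNA of 6 homozygous mutant yolk sacs (Prdm6 -/- in the sample labels) was hybridized on 12 cDNA arrays with 2 channels, each time against the same pool, which held the RNA of 6 wild type controls. The del allele lacks an exon of Prdm6 in every cell, since it was made with a deleter line that expresses Cre from the CMV promoter. The mutant RNA was labelled with Cy5 on 5 arrays and with Cy3 on 5 others, and on 2 arrays (replicates 8 and 9) the labels name 1 dye for both channels. Values are log2 ratios of del/del over wild type, a direction taken from the study's own display, since the labels do not state it. The wild type side is a single pooled sample, so its own spread is not part of any test, and the arrays, 2 for each mutant yolk sac, were tested as if independent, which makes the p-values too small. Only ratios were used, so the markers of yolk sac tissue could not be checked by their level. Prdm6 itself was not analysed here.

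These families bind DNA through conserved domains and direct many steps of early development. In the yolk sac, blood vessels and the first red cells arise from mesoderm that lies against the visceral endoderm. Ets factors such as Etv2, Erg and Fli1 are central to endothelial and blood cell fate. Klf2 responds to blood flow in endothelium, Sox17 acts in endoderm and in arterial endothelium, and Gata6 is required in visceral endoderm. T-box factors such as Tbx5 pattern the heart and limbs, and Tbx4 is expressed in the allantois.

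None of the 84 factor probes passed the threshold, set at more than 1.3-fold with an adjusted p below 0.05 (limma with Benjamini-Hochberg adjustment over 20516 probes). Among all probes 220 passed, or 1.07%, with 34 higher (0.166%) and 186 lower (0.907%) in del/del yolk sacs. At an unadjusted p under 0.05 there were 5 factor probes, 2 higher and 3 lower, which is 5.95% of them against 11% of all probes, and 0 of the 5 exceeded 1.3-fold. The mean log2 ratio lay above 0 for 38 factor probes and below 0 for 46. Their median was -0.017, beside -0.0037 for all probes, and 74 of the 84 means lay within 0.2 of 0. The sign of the mean changed for 35 of the 84 in at least 1 of the fits that left out 1 array. In any single such fit it changed for 4 to 12 of them. No such count is given for all probes.

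The intervals give the range of mean ratios that these arrays leave room for. Since signal over background is not known, they set no limit on the change of a transcript. The 95% interval of the mean stayed within 1.3-fold in both directions for 58 of 84 factor probes, or 69.0%, and for 61.4% of all probes. It stayed within 2-fold for 82 factor probes, or 97.6%, and for 93.2% of all probes. The remaining 2 were Etv4, with a mean of 1.92, and Elf3, with a mean of 1.82, whose means each rest on 1 value beyond 8 on the log2 scale. With such values taken as missing, 84 of 84 intervals stayed within 2-fold and the means ran between -0.289 and 0.358. When consecutive arrays were averaged as presumed pairs of 1 yolk sac, 56 of 82 factor probes stayed within 1.3-fold and 79 within 2-fold. Over all probes, 12468 of 20083 then stayed within 1.3-fold and 19027 within 2-fold.

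**Figure D1:**
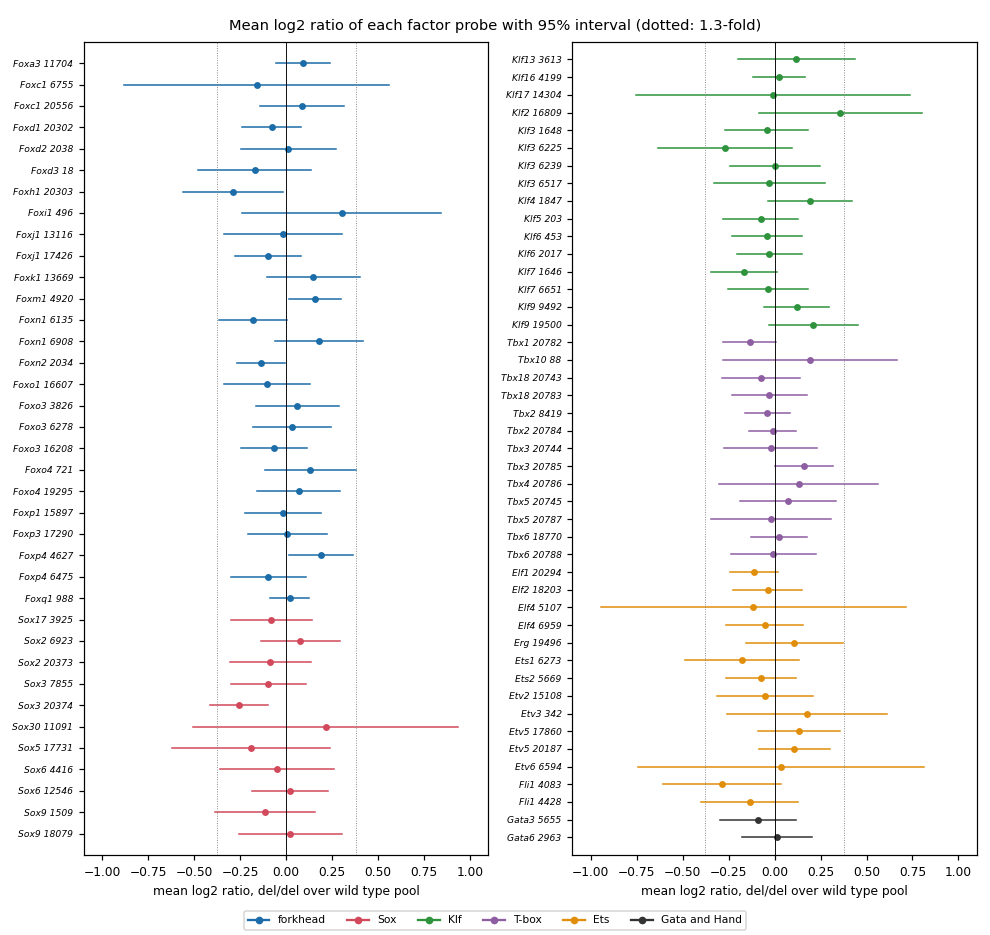
Mean log2 ratio of del/del over the wild type pool (x axis) for 82 factor probes (rows, gene and probe number), coloured by family, with 95% intervals from limma as lines and 1.3-fold either way as dotted lines. Etv4 and Elf3, each with 1 value beyond 8, are not drawn. All 82 means lie inside the dotted lines.

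Among forkhead factors the median of the 26 means was 0.0081, and 4 probes had an unadjusted p under 0.05. Foxm1, which drives cell division, ranged between -0.378 and 0.487 with a median of 0.231, and averaged 0.16 ± 0.27 (SD, n = 12 arrays, adjusted p = 0.386, limma). It was above 0 on 9 of 12 arrays. One probe of Foxp4 averaged 0.19 ± 0.32 (SD, n = 12, adjusted p = 0.393, limma), between -0.206 and 0.798 with a median of 0.178, while the other Foxp4 probe averaged -0.097. Foxh1, the nuclear partner of Smad proteins in Nodal signalling, gave the lowest mean of the family at -0.29 ± 0.43 (SD, n = 11, adjusted p = 0.412, limma), with a median of -0.325 and values between -0.784 and 0.482. Foxn2 averaged -0.14 ± 0.21 (SD, n = 12, adjusted p = 0.425, limma) and was below 0 on 10 of 12 arrays, between -0.476 and 0.226 with a median of -0.109. The means with del/del in Cy5 and in Cy3 were -0.068 and 0.336 for Foxm1 and 0.011 and 0.416 for the first Foxp4 probe. For Foxh1 they were -0.165 and -0.488, and for Foxn2 -0.289 and -0.0088. The Cy5 and Cy3 arrays did not overlap for Foxm1 and Foxn2. The highest mean, 0.30 for Foxi1, a factor of the inner ear and kidney, came with an SD of 0.92 and 1 array, replicate 12, at 3.08 against a median of 0.078, and was 0.040 without it.

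Forkhead factors with known roles in vessels also lay close to 0. Foxo1, without which yolk sac vessels of the mouse fail to remodel, averaged -0.10 (95% interval -0.336 to 0.128). The Foxc1 probes, for a factor of vascular and head mesenchyme, averaged -0.16 and 0.087. The first of these varied widely, with values between -2.39 and 2.80 and an interval of -0.882 to 0.561.

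The smallest adjusted p of all factor probes belonged to Sox3, a factor of neural progenitors. Its probe 20374 averaged -0.26 ± 0.25 (SD, n = 12, 95% interval -0.417 to -0.097, adjusted p = 0.156, limma). It ranged between -0.600 and 0.233 with a median of -0.257, and lay below 0 on 11 of 12 arrays. The second Sox3 probe averaged -0.097 and was below 0 on 8 arrays, and the r of the pair across the arrays was -0.286. The other Sox means ran up to 0.21 for Sox30, a testis factor with values between -2.10 and 3.74. Sox17 averaged -0.080 (95% interval -0.302 to 0.142, adjusted p = 0.813, limma), between -1.08 and 0.486 with a median of 0.079. Sox30 averaged -0.12 without replicate 10. Sox5 averaged -0.19, and -0.045 without replicate 3 (-1.81), one Sox9 probe -0.12, and the other probes of Sox9, Sox2 and Sox6 between -0.088 and 0.075.

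Klf2, the flow-responsive factor of endothelium, had the highest mean of the Klf family at 0.36 ± 0.57 (SD), but only 8 arrays held a value, between -0.415 and 1.204 with a median of 0.431. Its interval, -0.086 to 0.803, includes both 0 and changes above 1.3-fold (adjusted p = 0.555, limma). Klf4, which acts in endothelium and epithelia, averaged 0.19 ± 0.58 (SD, n = 12, adjusted p = 0.535, limma) and the Klf6 probes -0.043 and -0.028. One Klf7 probe had the smallest adjusted p of the family, 0.490 in limma, with a mean of -0.17. A Klf9 probe followed, with a mean of 0.21 (adjusted p = 0.521, limma). The second probes of these genes averaged -0.037 for Klf7 and 0.12 for Klf9. One of the 4 probes of Klf3, a repressor that is a target of Klf1 in red cells, gave the lowest mean, -0.27, which was -0.12 without replicate 5 (-2.07), and its other 3 probes lay between -0.043 and 0.00067.

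Of the 5 large families, the T-box factors showed the narrowest range of means, -0.14 for Tbx1, a factor of the pharyngeal arches, to 0.19 for Tbx10. The mean of Tbx10 rests on replicate 9, at 2.60 against a median of -0.096, and was -0.025 without it. Their smallest adjusted p was 0.453 in limma, for a Tbx3 probe with a mean of 0.16 and values above 0 on 9 of 12 arrays. The second Tbx3 probe averaged -0.022. Tbx4 averaged 0.13, but with values between -1.90 and 1.88, and the Tbx5 probes averaged 0.074 and -0.019. Tbx18, a factor of the epicardium, averaged -0.074 and -0.028.

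Of the Ets factors with a role in endothelium and blood, a Fli1 probe had the lowest mean, -0.29 (adjusted p = 0.508, limma), and the other Fli1 probe averaged -0.14 (adjusted p = 0.729, limma). The first was below 0 on 6 of 12 arrays, with a median of -0.014, and averaged -0.15 without replicate 7, its lowest value at -1.66. Ets1 averaged -0.18 ± 0.50 (SD, n = 12, adjusted p = 0.695, limma), Ets2 -0.074, Etv2, which specifies blood and endothelial precursors, -0.052, and Erg 0.11. Etv6, required for yolk sac vessels in the mouse, averaged 0.034 on 10 arrays with an interval as wide as -0.743 to 0.812. Etv5, a target of Fgf signalling, averaged 0.13 and 0.11 at its 2 probes. Elf1 had the mean -0.11 and was below 0 on 9 of 12 arrays. Gata6 averaged 0.014 (95% interval -0.176 to 0.204), with values between -0.618 and 0.518 and a median of 0.005. Gata3, a factor of trophoblast and other epithelia, averaged -0.089 (95% interval -0.295 to 0.118).

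No factor probe had the same sign on every array, beside 0.950% of all probes, a share too small to set 84 probes apart. Several followed the dye, as did many probes of the whole array. The del/del in Cy5 arrays did not overlap with the del/del in Cy3 arrays for 15 of the 76 factor probes with 5 values in each orientation, or 19.7%, beside 15.3% of all probes so measured. The dye term had an adjusted p under 0.05 (limma) for 15 factor probes, or 17.9%, beside 12.2% of all probes. Of the T-box probes 7 of 13 had such a dye term, against 3 Sox, 2 forkhead, 2 Klf and 1 Ets probe.

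Of these 15 non-overlapping probes, a Tbx5 probe had the largest difference between orientations. With del/del in Cy5 its ratios were 0.315, 0.613, 1.17, 0.834 and 0.911, and with del/del in Cy3 they were -0.497, -0.723, -0.804, -0.613 and -0.527. The probe was thus above 0 on every Cy5 array and below 0 on every Cy3 array, with means of 0.77 and -0.63 in Cy5 and Cy3 arrays (dye term adjusted p = 0.0171, limma). One Tbx3 probe did the same, with means of 0.65 in Cy5 and -0.67 in Cy3 arrays. The second probes of these genes did not. That of Tbx5 averaged -0.39 in Cy5 and 0.19 in Cy3 arrays, and that of Tbx3 0.12 in Cy5 and 0.15 in Cy3 arrays. Klf4 averaged 0.65 in Cy5 arrays, between 0.160 and 0.927, and -0.32 in Cy3 arrays, between -0.531 and 0.047. One Sox6 probe ran the other way, with -0.48 in Cy5 and 0.49 in Cy3 arrays. The second Sox6 probe averaged -0.12 in Cy5 and 0.16 in Cy3 arrays, and its orientations overlapped. Ets2 averaged 0.26 in Cy5 and -0.46 in Cy3 arrays. Sox17, whose orientations overlapped, averaged 0.29 in Cy5 and -0.47 in Cy3 arrays (dye term adjusted p = 0.0477, limma).

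**Figure D2:**
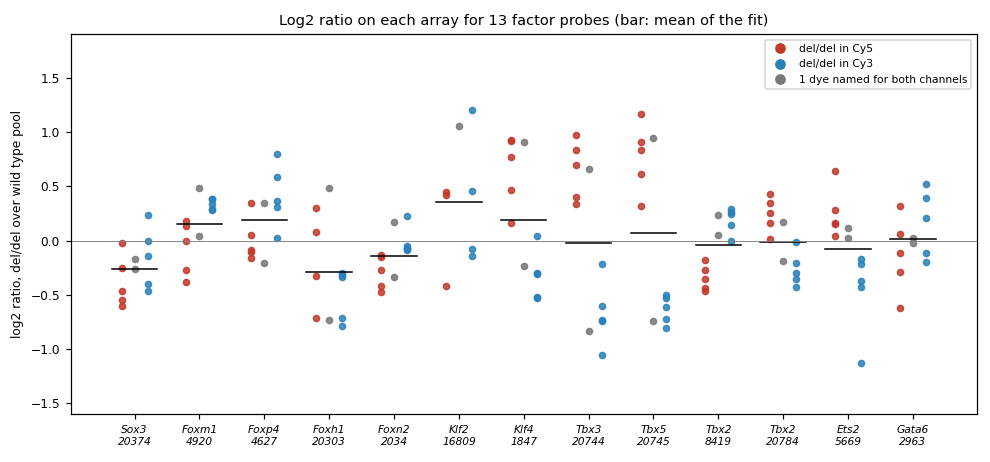
Log2 ratio of del/del over the wild type pool (y axis) on each array for 13 factor probes (x axis), by dye of the del/del channel, with the mean as a bar. Tbx5 20745 and Tbx3 20744 lie above 0 on every Cy5 array and below 0 on every Cy3 array, while the Sox3 probe lies below 0 on 11 of 12 arrays.

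**Figure D3:**
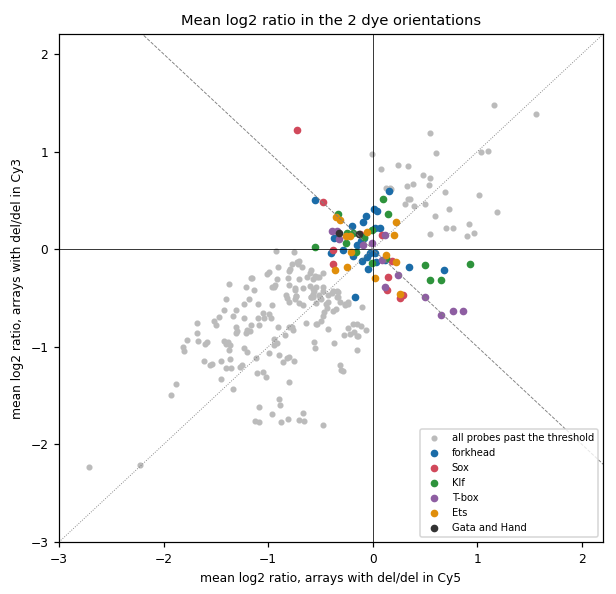
Mean log2 ratio on arrays with del/del in Cy5 (x axis) and in Cy3 (y axis) for the factor probes, coloured by family, and for the 220 probes past the threshold in grey. The dotted line marks equal means and the dashed line opposite means; several T-box probes lie near the dashed line. The grey probes passed on their mean over both orientations, so that their place away from the dashed line follows from how they were chosen. Etv4 and Elf3 are not drawn.

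Different probes of 1 gene seldom moved together, with an r above 0.5 in 2 of 29 pairs. Across the arrays, the Pearson r of the 29 pairs of probes of 22 genes ranged from -0.796 for Tbx2 to 0.724 for Foxo4, with a median of 0.0943. These are descriptions over at most 12 arrays that share the same pool and dyes. In 18 of the 29 pairs the Cy5 minus Cy3 differences had opposite signs. One Tbx2 probe averaged -0.34 in Cy5 and 0.19 in Cy3 arrays, and the other 0.24 in Cy5 and -0.26 in Cy3 arrays. The means of 2 probes of a gene differed by at most 0.358, for Foxn1, the thymic epithelial factor.

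Related blood factors outside these symbols gave calls on the same arrays. Of 22 measured genes in a list of other family members and partners, 2 were lower in del/del yolk sacs, Gata1 and Zfpm1, and 0 were higher. Over all genes with a symbol, 1.32% were lower and 0.335% higher. Gata1, the main Gata factor of red cells, averaged -0.45 ± 0.36 (SD, n = 12, adjusted p = 0.0041, limma) and was below 0 on 11 of 12 arrays, with means of -0.15 in Cy5 and -0.77 in Cy3 arrays. Zfpm1, the cofactor of Gata1, was lower at 1 probe (-0.59, adjusted p = 0.0252, limma) and had a mean of 0.15 at the other. The lower probe missed the threshold without any 1 of replicates 4, 6, 7, 9, 10, 11 and 12, with adjusted p up to 0.0672 (limma). Klf1, the erythroid Klf factor, averaged -0.41 (adjusted p = 0.22, limma). Fewer cells of a type and less RNA per cell cannot be told apart in such tissue samples.

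Markers of the cell types in a yolk sac sample were counted on the same arrays. Over all 8956 genes with a symbol, 0.335% were higher and 1.32% lower at 1 probe or more. Of 14 measured erythroid markers 12 were lower in del/del yolk sacs (median -0.60), and of 14 markers of the embryo proper and heart 4 were higher, Map1b, Myl4, Myl7 and Tnnt2 (median 0.31). Of 19 endothelial markers 1 was lower, Tal1, of 18 visceral endoderm markers 1, Alb, of 13 mesenchyme markers 3, and of 7 macrophage markers 2. Tal1 is also among the 12 erythroid markers that were lower. It was lower at 1 probe (-0.85), and its other probe averaged -0.0015 (adjusted p = 0.996, limma). The lower Tal1 probe missed the threshold without any 1 of replicates 2, 3, 4, 6, 9 and 10. The macrophage calls numbered 0 or 1 without any 1 of replicates 1, 2, 3, 4, 5, 6, 9, 10 and 11. After the presumed pairs were averaged, 8 erythroid and 2 mesenchyme markers were lower. In the list of the embryo proper and heart 3 stayed higher, Map1b, Myl7 and Tnnt2, and Myl4 did not. The endothelial, visceral endoderm and macrophage lists gave 0 calls. The 9 smooth muscle and 4 trophoblast markers gave 0 calls. The part of these markers in the values of the factors was not tested.

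Textbook targets of the families were counted in the same way, beside the same 0.335% higher and 1.32% lower over all genes. Of 9 measured targets of T-box, Hand and Gata4 factors in the heart, 4 were higher and 0 lower, with a median of 0.36. Tnnt2, cardiac troponin T, averaged 1.503 (adjusted p = 9.9e-05, limma) and Myl7, the atrial myosin light chain, 1.28 (adjusted p = 0.00031, limma), both above 0 on 12 of 12 arrays. Tnnc1 averaged 0.46 and Myl4 0.64, and Myl4 missed the threshold without any 1 of replicates 1, 2, 7 and 10. Tnnt2, Myl7 and Myl4 are in the list of embryo and heart markers as well. Of 21 targets of Ets and forkhead factors in endothelium 2 were higher, Esm1 (0.56) and Nrp2 at 1 of 3 probes (0.49). Of the 12 fits that left out 1 array, Esm1 missed the threshold in 10 (all but those without replicate 3 or 4) and Nrp2 in 8 (all but those without replicate 4, 8, 11 or 12). Of 10 targets of Klf2 or of shear stress 1 was higher, Ace, at 1 of its 3 probes (0.41, adjusted p = 0.0039, limma), with means of -0.013 and -0.57 at the others. Of 17 targets of Gata, Foxa and Sox17 factors in visceral endoderm 1 was lower, Alb (-1.33). With presumed pairs averaged, the heart targets Tnnt2 and Myl7 and the Klf2 target Ace stayed past the threshold, and Esm1, Nrp2 and Alb did not (adjusted p = 0.235, 0.143 and 0.0574, limma).

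**Figure D4:**
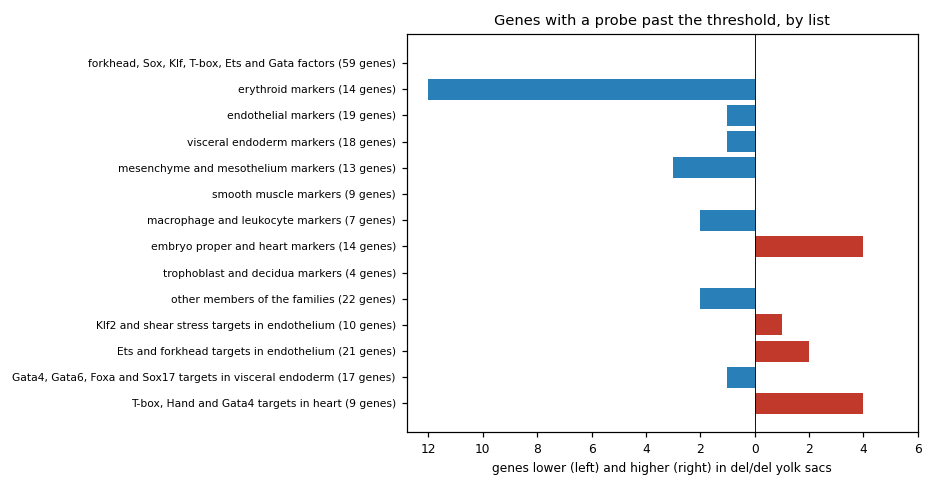
Number of genes in each list that had a probe past the threshold, lower in del/del yolk sacs to the left of 0 and higher to the right. The 59 factor genes have 0 on either side, the erythroid markers 12 of 14 lower, and the heart targets 4 of 9 higher.

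Promoter windows of the genes past the threshold were searched for short core motifs of the families on both strands. The windows, from RefSeq (GRCm38.p6), run 250 bases before to 50 bases after each start site, and 81 of the 118 lower genes and 21 of the 30 higher genes had one. The motif AGATAA of Gata factors was in 8.74% of 103 windows of lower genes, in 5.88% of 34 windows of higher genes and in 6.86% of windows of all genes tested. CGGAAG of Ets factors was in 23.3%, 11.8% and 26.8% of the same windows, GGGTGTG of Klf factors in 9.71%, 11.8% and 8.63%, and TGTTTAC of forkhead factors in 3.88%, 2.94% and 2.65%. AACAAT of Sox factors was in 6.8%, 2.94% and 6.23%, and AGGTGTG of T-box factors in 3.88%, 0% and 4.99%. These shares are descriptions, and a match is no binding site. Among higher targets, Myl4 of the heart list held an Ets motif, and Nrp2 of the Ets and forkhead list held 2 matches of the Klf motif. Their windows are not shown. The windows of 2 other higher targets, with a motif of a family named for their list, are shown with the match in capitals. They are Tnnt2 (chr1:135836084-135836383, plus strand, a Gata motif on the other strand) and Ace (chr11:105967698-105967997, plus strand, a Klf motif).
Tnnt2: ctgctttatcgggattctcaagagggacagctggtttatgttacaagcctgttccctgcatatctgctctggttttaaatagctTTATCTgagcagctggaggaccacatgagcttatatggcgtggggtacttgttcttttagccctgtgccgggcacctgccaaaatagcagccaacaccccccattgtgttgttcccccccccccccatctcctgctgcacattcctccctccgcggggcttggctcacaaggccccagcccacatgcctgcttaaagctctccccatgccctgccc
Ace: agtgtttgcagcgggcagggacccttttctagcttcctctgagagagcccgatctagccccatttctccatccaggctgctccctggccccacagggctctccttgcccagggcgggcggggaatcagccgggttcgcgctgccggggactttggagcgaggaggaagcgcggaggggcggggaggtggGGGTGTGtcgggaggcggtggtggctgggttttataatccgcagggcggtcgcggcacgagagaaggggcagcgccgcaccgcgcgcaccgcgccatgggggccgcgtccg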

How the data were processed

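The deposited values are log2 ratios that the authors had normalized; the method of normalization is not given in the sources used here. The methods state RNeasy Mini kits with RNA amplification, whereas the labels state RNeasy Midi kits and indirect labelling. Ratios were read as del/del over wild type on every array, following the direction of the study's own display. Arrays of opposite dye orientation correlated with a median r of -0.115 over all probes (-0.193 to 0.0159), and arrays of the same orientation with 0.124. Each array held between 20011 and 20501 values. Signal over background is not known, so a ratio near 0 sets no limit on the change of a transcript. The precision is limited by the 12 arrays of 6 mutant yolk sacs.

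Each of 20516 probes with at least 8 values was fitted with lmFit and eBayes (limma 3.58.1, R 4.3.3) as the mean against 0 with a dye term (0 for replicates 8 and 9). Thresholds were an adjusted p of 0.05 and 1.3-fold, as in the methods. Symbols came from the platform annotation, updated by gene ID (GRCm38.p6). They gave a single symbol for 12771 probes, none for 8023 and several for 0. Foxred1, an oxidoreductase, was not counted as a forkhead factor. Named are, per family, the 4 probes with the smallest adjusted p, the extremes of the means, and factors with a known role in yolk sac, endothelium or heart. The fit was tested on simulated data. The factors and lists were chosen with earlier results of these data known. Correlation of factors with globin probes was planned for factors past the threshold only, and there were 0. Alternatives were other dye codes, pairing, centring, filters, fold thresholds, eBayes options, probe averaging, single orientations and leaving out each array. Another, chosen after seeing the data, combined the channel 1 dye for replicates 8 and 9 with values beyond 8 as missing.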

Additional observations from a re-analysis of the deposited data

How the results depend on the processing

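The count of factor probes past the threshold was 0 under all alternatives run, including each orientation alone and the omission of each array. The smallest adjusted p of a factor probe (limma) lay between 0.106 and 0.311 when 1 array was left out, and was 0.101 for Foxn1 with Cy5 arrays only and 0.0602 for Tbx5 with Cy3 arrays only. Without 1 array, 165 to 214 of all probes passed and the median of the factor probes ran from -0.0382 to 0.00104. Over all probes 113 passed with consecutive arrays averaged as presumed pairs, 132 at 1.5-fold, 1 with Cy5 arrays only and 44 with Cy3 arrays only. Factor probes with 1 sign on all arrays numbered 3 with presumed pairs, 19 with Cy5 arrays only and 14 with Cy3 arrays only, and 0 to 1 when 1 array was left out. Shares over all probes were not computed for these settings, and 1 sign is easier to reach with fewer values. The counts are therefore no result about the factors. With presumed pairs averaged, adjusted p (limma) was 0.0401 for Gata1, 0.143 for Zfpm1, 0.0218 for Tnnt2, 0.0356 for Myl7, 0.0735 for Myl4, 0.0901 for Tnnc1, 0.139 for Tal1 and 0.0455 for Ace. This pairing is presumed from consecutive numbers, since the labels do not tie arrays to yolk sacs.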
